A study of Mus musculus with 9 samples.

Results

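The genes described here encode Usp22 and the other parts of the deubiquitinase module of SAGA, a chromatin coactivator complex, with the relatives that use the same partners. They were chosen by name: Usp22, Usp27x, Usp51, Atxn7l3, Atxn7l3b, Eny2, Atxn7, Atxn7l1 and Atxn7l2, which are 9 of the 24493 genes in the deposited table. All 9 were in the table, and 8 of them, all except Usp51, averaged 1 TPM or more across the 9 samples and so were among the 13843 genes tested. TPM is the reads assigned to a gene per transcript length, scaled to 1000000 in each library, so levels of different genes can be set beside each other.

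Polyadenylated RNA was sequenced from mouse pancreatic tumor cells of the line 6419c5, a single clone on a C57BL/6 background. There were 3 samples of Usp22-KOA and 3 of Usp22-KOB, a pair of Usp22 knockouts, and 3 of wild type (WT). All 9 came from late stage tumors implanted under the skin of mice, and no treatment, time or age is given. The meaning of A and B, the altered part of Usp22 and the way tumor cells were parted from host cells are not stated. Nor do the labels tie the samples of a group to separate mice, so the p-values reflect sample-to-sample spread that may be technical.

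The module removes ubiquitin from histone H2B, and also from H2A, at genes that SAGA visits. Usp22 is its protease and has little activity on nucleosomes until it is bound by Atxn7l3, an adaptor, and Eny2, a small protein, while Atxn7 or a paralog of it (Atxn7l1 or Atxn7l2) ties the module to the rest of SAGA. In human cells USP27X and USP51, which are close relatives of USP22, compete for the same ATXN7L3 and ENY2 outside SAGA, and ATXN7L3B competes with ATXN7L3 for ENY2. USP22 is known from human tumors as part of a gene signature of poor outcome.

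In both knockouts the RNA of the protease was lower than in WT, and so was that of Eny2 and Atxn7l2, while that of the adaptor Atxn7l3 was higher. Of the 8 tested members, 3 rose and 3 fell in Usp22-KOA against WT, where 56.3% of all tested genes were called at an adjusted p under 0.05. In Usp22-KOB against WT 1 rose and 4 fell, and 37.1% of all tested genes were called. With the mean of both knockouts against WT, 3 rose and 4 fell, and 50.0% of all tested genes were called. The p-values of that mean rest on the spread within groups and leave out the spread between Usp22-KOA and Usp22-KOB. With the 6 knockout samples as 1 group 4 members were called, beside 21.3% of all tested genes. The count in Usp22-KOB was 3 without WT 1, where 27.4% of all tested genes were called, and 3 without WT 3, where 29.4% were. In Usp22-KOA against Usp22-KOB 0 rose and 2 fell, and 51.7% of all tested genes were called. The median log2 difference of the 8 members was -0.23 for Usp22-KOA, where that of all genes was 0.019, and -0.25 for Usp22-KOB, where that of all genes was -0.0075. Both comparisons share the WT samples. Where the samples of a gene are said not to overlap between groups, the share of all genes that do the same was not counted. Differences are of log2(TPM + 1), which understates the change of low genes, and are given ± SE with p-values from 1 limma fit of all 9 samples, Benjamini-Hochberg adjusted over all tested genes.

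**Figure D1:**
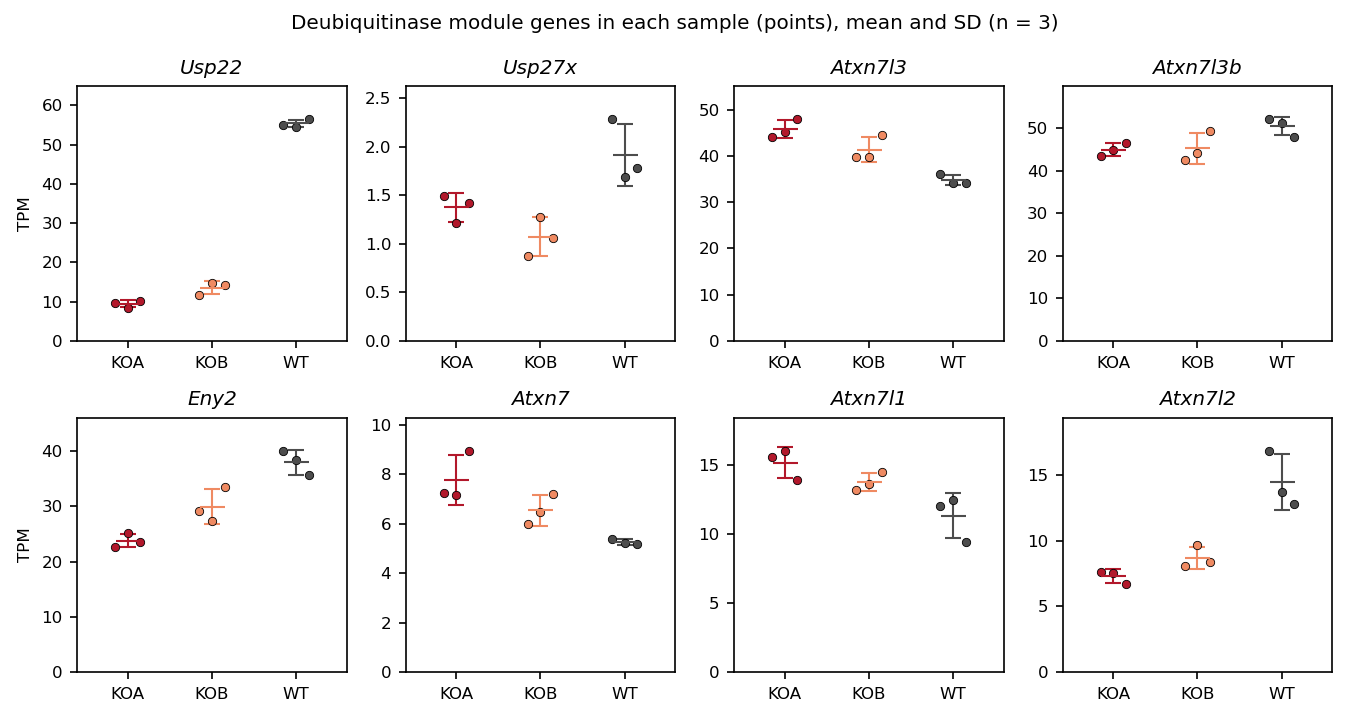
TPM of the 8 detected members in each sample (points) of Usp22-KOA, Usp22-KOB and WT, with the mean as a line and the SD as bars (n = 3 per group); every axis starts at 0. Usp22, Usp27x, Eny2 and Atxn7l2 sit lower in all knockout samples than in any WT sample, and Atxn7l3, Atxn7 and Atxn7l1 sit higher. How many of all tested genes separate in this way was not counted, and 50.0% of them were called with both knockouts against WT.

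**Figure D2:**
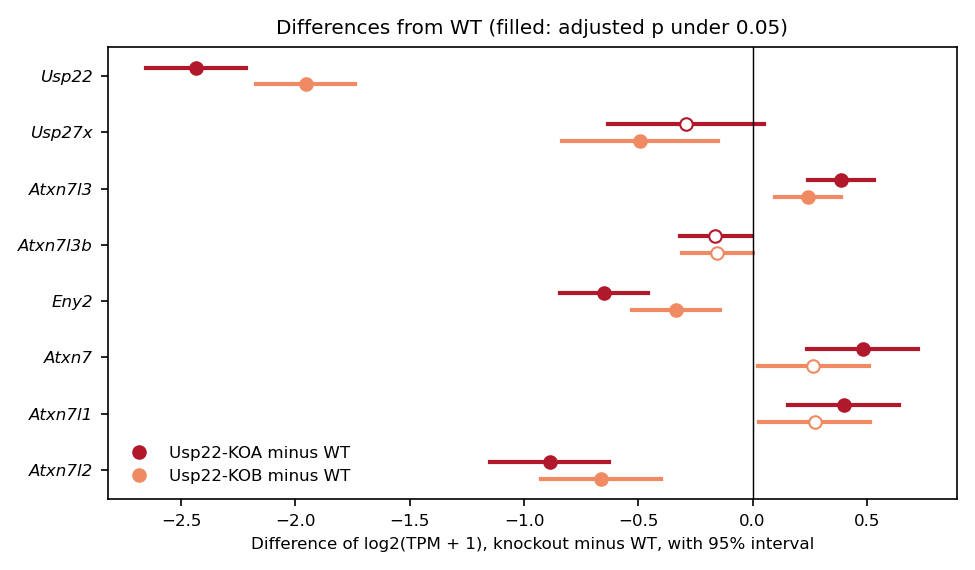
Difference of log2(TPM + 1) of each member, Usp22-KOA minus WT and Usp22-KOB minus WT, with 95% intervals; filled points passed an adjusted p of 0.05. Usp22 lies at -2.44 and -1.96, far from the other members, which lie between -0.89 and 0.48.

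The samples held marker RNA of other cell types beside that of epithelial tumor cells. The summed TPM of 6 epithelial markers was 6245 to 7026 in Usp22-KOA, 6812 to 8325 in Usp22-KOB and 7759 to 8264 in WT. Of these 6 genes 1 rose and 4 fell in Usp22-KOA, beside 56.3% of all tested genes called. In Usp22-KOB 0 rose and 2 fell, beside 37.1%. The keratins Krt8 and Krt19 made up most of the sum, and Krt8 was at 2355 TPM or more in every library. Krt19 averaged 2814 TPM in Usp22-KOA, 1911 TPM in Usp22-KOB and 2065 TPM in WT. Krt7 averaged 146.3 TPM in Usp22-KOA, 652.3 TPM in Usp22-KOB and 905.1 TPM in WT, and Krt18 averaged 930.1 TPM in Usp22-KOA, 1822 TPM in Usp22-KOB and 1771 TPM in WT. Cdh1, the epithelial cadherin, averaged 280.9 TPM in Usp22-KOA, 353.1 TPM in Usp22-KOB and 399.9 TPM in WT. Epcam, a defining surface marker of epithelium, averaged 37.6 TPM in Usp22-KOA, 31.3 TPM in Usp22-KOB and 378.9 TPM in WT, and every knockout sample was below WT, while the summed list of Usp22-KOB overlapped WT. The 6 pan-leukocyte markers summed to 237 to 531.1 TPM in Usp22-KOA, 465.5 to 913.9 TPM in Usp22-KOB and 206.5 to 342.8 TPM in WT. T and NK cell markers, 7 of 8 listed being in the table, summed to 36.7 to 86.1 TPM in Usp22-KOA, 18.9 to 50.4 TPM in Usp22-KOB and 6.69 to 12.8 TPM in WT, with every knockout sample above every WT sample. Of these 7 genes 6 rose in Usp22-KOA and 5 in Usp22-KOB, beside 56.3% and 37.1% of all tested genes called. Gzmb and Nkg7 made up most of the Usp22-KOA sum, averaging 20.45 and 15.97 TPM there and 0.765 and 1.035 TPM in WT. Cd3d averaged 5.13 TPM in Usp22-KOA, 5.79 TPM in Usp22-KOB and 4.52 TPM in WT. Mast cell markers (6) summed to 860.7 to 1802 TPM in Usp22-KOA, 37.5 to 66.2 TPM in Usp22-KOB and 3.15 to 8.53 TPM in WT. Macrophage markers (7) summed to 4804 to 8441 TPM in Usp22-KOB but overlapped between Usp22-KOA, at 1040 to 2660 TPM, and WT, at 1671 to 2587 TPM. Fibroblast markers (7) were lowest in Usp22-KOA, at 180.1 to 208.4 TPM, against 771.2 to 1179 TPM in Usp22-KOB and 482.4 to 897 TPM in WT. Of these 7 genes 5 fell and 2 were not called in Usp22-KOA, beside 56.3% of all tested genes called. Col3a1 made up most of the sum there, at 165.2 TPM on average, against 338.5 TPM in Usp22-KOB and 178.1 TPM in WT. Col1a1 averaged 16.4 TPM in Usp22-KOA, 330.4 TPM in Usp22-KOB and 231.7 TPM in WT. Endothelial markers (6) were also lowest in Usp22-KOA, at 4.40 to 9.90 TPM, against 21.2 to 31.9 TPM in Usp22-KOB and 28.8 to 39.4 TPM in WT. Skeletal muscle markers (5) summed to 4.36 to 6.45 TPM in Usp22-KOA, 2.18 to 6.99 TPM in Usp22-KOB and 7.19 to 8.54 TPM in WT. Red cell markers (5) summed to 80.4 to 100.2 TPM in Usp22-KOA, 228.7 to 530.4 TPM in Usp22-KOB and 269.3 to 323 TPM in WT. Of all listed markers in the table, those at 0 through a whole group were Myh4 in Usp22-KOA and Hbb-bs in all 3 groups. In such bulk samples fewer cells of a type and less RNA per cell cannot be told apart.

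**Figure D3:**
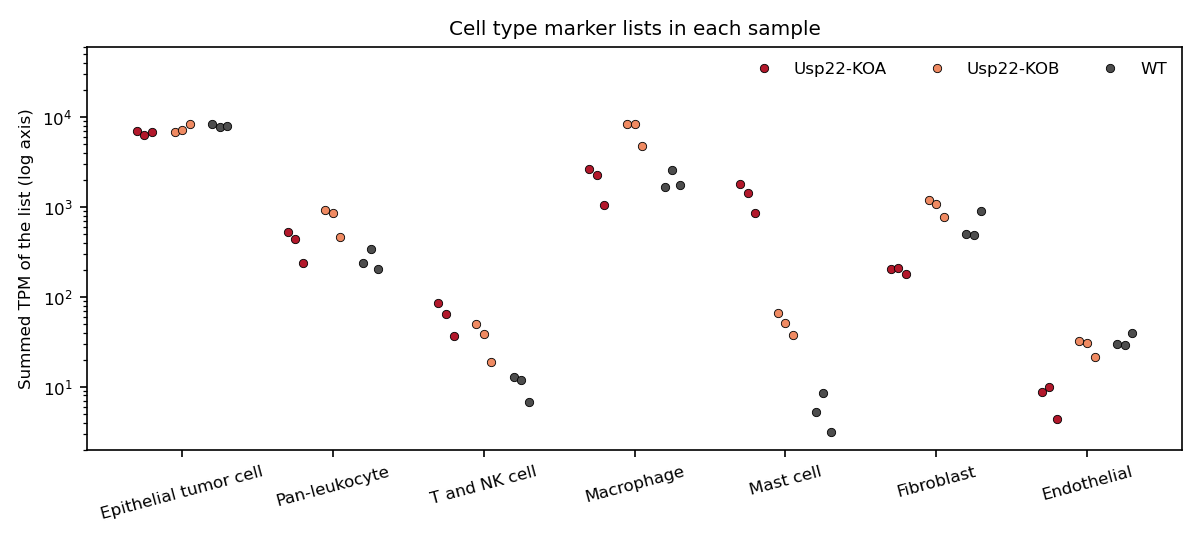
Summed TPM (log axis) of 7 marker lists in each sample of Usp22-KOA, Usp22-KOB and WT; each point is 1 sample. The T and NK cell and the mast cell sums are higher in every knockout sample than in any WT sample, and the fibroblast and endothelial sums are lowest in Usp22-KOA.

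Usp22 (chromosome 11, 61151785 to 61175055, minus strand, in GRCm38) is the targeted gene. The 2 remaining proteases of the family are Usp27x (chromosome X, 7371276 to 7375830, minus strand) and Usp51 (chromosome X, 153006469 to 153009416, plus strand). Their coding sequences around the catalytic histidine, a part of the enzyme that the family shares, are given to show how far reads of the 3 genes can be told apart, as 90 bases each of the GENCODE M21 transcripts; capitals in Usp27x and Usp51 mark bases identical to Usp22, and capitals in Usp22 mark bases identical in all of them.
Usp22 (chr11:61155232-61155321, minus strand): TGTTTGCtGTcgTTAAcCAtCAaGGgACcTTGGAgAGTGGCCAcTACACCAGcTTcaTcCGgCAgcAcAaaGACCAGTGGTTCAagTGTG
Usp27x (chrX:7373676-7373765, minus strand): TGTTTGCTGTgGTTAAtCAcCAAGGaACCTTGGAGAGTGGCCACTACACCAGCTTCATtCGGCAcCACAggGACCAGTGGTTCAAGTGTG
Usp51 (chrX:153009213-153009302, plus strand): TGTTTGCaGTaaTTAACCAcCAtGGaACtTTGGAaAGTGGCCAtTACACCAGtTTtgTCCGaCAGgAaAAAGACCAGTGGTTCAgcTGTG
Over this stretch 82 of 90 bases of Usp27x and 73 of 90 bases of Usp51 matched Usp22. Over the aligned coding sequence Usp22 and Usp27x were 79.3% identical in 1140 bases, with a longest identical run of 32 bases, and Usp22 and Usp51 were 71.3% identical in 1459 bases, with a longest run of 16 bases. Of the 4871 different 31-base words in the Usp22 transcripts, 2 also occurred in Usp27x transcripts and 0 in Usp51 transcripts.

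Usp22 was at 9.77, 8.46 and 10.1 TPM in the Usp22-KOA samples, at 11.8, 14.9 and 14.1 TPM in Usp22-KOB and at 55.1, 54.5 and 56.4 TPM in WT. No sample of Usp22-KOA reached a sample of Usp22-KOB, and none of either reached WT. Among the genes at 1 TPM or more in a library, it ranked at the 29.97 to 33.9 percentile in Usp22-KOA, the 39.8 to 45.4 percentile in Usp22-KOB and the 80.6 to 82.0 percentile in WT. The difference from WT was -2.44 ± 0.10 (adjusted p = 1.8e-07) in Usp22-KOA and -1.96 ± 0.10 (adjusted p = 2.2e-06) in Usp22-KOB, and Usp22-KOA lay -0.48 ± 0.10 from Usp22-KOB (adjusted p = 0.00289). The table gives whole-gene values, so transcripts that carry an altered Usp22 sequence count like intact ones. Marker RNA of host cells was present as well: the sums of leukocytes, mast cells and fibroblasts differed between the groups as given above, and their part in the remaining Usp22 RNA was not tested.

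Usp27x was the least abundant detected member, at 1.497, 1.21 and 1.42 TPM in the Usp22-KOA samples, 0.878, 1.28 and 1.06 TPM in Usp22-KOB and 2.28, 1.69 and 1.78 TPM in WT. All knockout samples were below all WT samples. It fell by 0.49 ± 0.15 in Usp22-KOB (adjusted p = 0.0306), and the difference in Usp22-KOA was -0.29 ± 0.15 (adjusted p = 0.128, 95% interval -0.63 to 0.049), which turned to 0.035 with quantile normalization. Usp22-KOA and Usp22-KOB overlapped, with a difference of 0.20 (adjusted p = 0.294). The call in Usp22-KOB ended without Usp22-KOB 1 (adjusted p = 0.0945), without WT 1 (adjusted p = 0.104) or without WT 3 (adjusted p = 0.0570), and with leukocyte or T and NK cell markers as a covariate (adjusted p = 0.329 and 0.314). With these covariates the difference was -0.44 ± 0.27 and -0.49 ± 0.28, close in size but with a larger SE. Usp27x RNA was 14.6% ± 0.648 of Usp22 RNA in Usp22-KOA, 7.86% ± 0.637 in Usp22-KOB and 3.47% ± 0.590 in WT (SD, n = 3 each), while its own level was lower in the knockouts. Usp51 was listed at 0 TPM in all 9 samples, and no fold is given for it. Neither relative was higher in a knockout sample than in WT.

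The adaptor Atxn7l3 (chromosome 11, 102289300 to 102296631, minus strand) binds Usp22 and Eny2 through its amino-terminal part. Atxn7l3b (chromosome 10, 112925430 to 112929001, minus strand) is a short relative that resembles this end alone. The coding sequence was 1062 bases in Atxn7l3 and 291 bases in Atxn7l3b, and their transcripts shared 0 words of 31 bases.

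Atxn7l3 was at 44.2, 45.2 and 47.9 TPM in the Usp22-KOA samples, 39.7, 39.8 and 44.5 TPM in Usp22-KOB and 36.1, 34.0 and 34.2 TPM in WT. Every knockout sample was above every WT sample, and the knockouts overlapped each other. It rose by 0.39 ± 0.06 in Usp22-KOA (adjusted p = 0.000761) and by 0.24 ± 0.06 in Usp22-KOB (adjusted p = 0.0168). The call in Usp22-KOB ended without WT 2 (adjusted p = 0.0551) or WT 3 (adjusted p = 0.0537). With T and NK cell markers as a covariate the differences were larger and still called, at 0.61 ± 0.13 in Usp22-KOA and 0.40 ± 0.10 in Usp22-KOB (adjusted p = 0.00824 and 0.0353). The difference between Usp22-KOA and Usp22-KOB was 0.14 (adjusted p = 0.0882) and was called without Usp22-KOB 3 (0.20, adjusted p = 0.0198). The ratio of Usp22 RNA to Atxn7l3 RNA was 0.206 ± 0.0173 in Usp22-KOA, 0.329 ± 0.0396 in Usp22-KOB and 1.59 ± 0.0624 in WT (SD, n = 3 each), so the adaptor's RNA was the more abundant in all 6 knockout samples and the protease's in all 3 WT samples.

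Atxn7l3b had 43.5, 44.9 and 46.7 TPM in the Usp22-KOA samples, 42.5, 44.1 and 49.5 TPM in Usp22-KOB and 52.2, 51.4 and 48.1 TPM in WT. All Usp22-KOA samples were below WT, and Usp22-KOB 3 was above the lowest WT sample. The difference was -0.16 (adjusted p = 0.0698, 95% interval -0.32 to -0.0078) in Usp22-KOA and -0.15 (adjusted p = 0.109, 95% interval -0.31 to 0.00062) in Usp22-KOB, so it was not called in either. Without Usp22-KOB 3 both were called (adjusted p = 0.0264 and 0.0192). The RNA of Atxn7l3 relative to that of Atxn7l3b was 1.02 ± 0.0106 in Usp22-KOA, 0.912 ± 0.0191 in Usp22-KOB and 0.688 ± 0.0242 in WT, and the 3 groups did not overlap. An antisense gene, Gm26596, shares 501 of the 3572 exon bases of Atxn7l3b (14.0%), and the sources used here do not state whether counting used strand.

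Eny2 (chromosome 15, 44428042 to 44438256, plus strand) also belongs to TREX-2, a complex of messenger RNA export. Its level was 22.7, 25.1 and 23.6 TPM in the Usp22-KOA samples, 29.1, 27.3 and 33.4 TPM in Usp22-KOB and 40.0, 38.3 and 35.5 TPM in WT. The 3 groups did not overlap, and their order was that of Usp22 itself. The same held for Atxn7l2, described below. Eny2 fell by 0.65 ± 0.08 in Usp22-KOA (adjusted p = 0.000172) and by 0.34 ± 0.08 in Usp22-KOB (adjusted p = 0.0137), and Usp22-KOA lay below Usp22-KOB, with a difference of -0.32 ± 0.08 (adjusted p = 0.0125). Per unit of Atxn7l3 RNA, Eny2 RNA was 0.520 ± 0.0327 in Usp22-KOA, 0.723 ± 0.0334 in Usp22-KOB and 1.09 ± 0.0452 in WT (SD, n = 3 each). Eny2 was called in none of these comparisons once T and NK cell markers entered as a covariate (-0.47 ± 0.19, -0.21 ± 0.15 and -0.26 ± 0.10; adjusted p = 0.0953, 0.418 and 0.0505), and in Usp22-KOB its call also ended with pan-leukocyte markers (adjusted p = 0.353), without Usp22-KOB 2 (adjusted p = 0.0548) or without WT 1 (adjusted p = 0.0551). T and NK cell sums were higher in every knockout sample than in WT. That covariate and knockout against WT therefore cannot be told apart, and the SEs against WT grew. Nudcd1, on the opposite strand, shares 266 of the 5763 exon bases of Eny2 (4.62%), and Gm22392, on the same strand, shares 107. Nudcd1 had 10.9 ± 0.390 TPM in Usp22-KOA, 15.3 ± 2.10 TPM in Usp22-KOB and 14.9 ± 1.12 TPM in WT, with a difference from WT of -0.42 (adjusted p = 0.00723) in Usp22-KOA and 0.025 (adjusted p = 0.876) in Usp22-KOB. Its part in the Eny2 values was not tested.

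The 3 genes of the Atxn7 type, which anchor the module, moved in different directions. Atxn7 (chromosome 14, 13961440 to 14107302, plus strand), whose repeat expansion causes a spinocerebellar ataxia in people, had 7.23, 7.16 and 8.94 TPM in the Usp22-KOA samples, 5.97, 6.45 and 7.20 TPM in Usp22-KOB and 5.40, 5.21 and 5.17 TPM in WT. All knockout samples were above all WT samples. It rose by 0.48 ± 0.11 in Usp22-KOA (adjusted p = 0.00429), and the difference in Usp22-KOB was 0.27 (adjusted p = 0.0827, 95% interval 0.022 to 0.51). With pan-leukocyte markers as a covariate the difference in Usp22-KOB was 0.55 and was called (adjusted p = 0.0427), and with T and NK cell markers those in Usp22-KOA and Usp22-KOB were 0.87 and 0.54 (adjusted p = 0.0151 and 0.0691).

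Atxn7l1 (chromosome 12, 33147693 to 33373185, plus strand), a paralog, had 15.6, 16.03 and 13.9 TPM in the Usp22-KOA samples, 13.2, 13.7 and 14.5 TPM in Usp22-KOB and 12.02, 12.5 and 9.45 TPM in WT. Again no knockout sample was as low as a WT sample. It rose by 0.40 ± 0.11 in Usp22-KOA (adjusted p = 0.0111), a call that ended with T and NK cell markers as a covariate (0.22 ± 0.25, adjusted p = 0.534), and its difference in Usp22-KOB was 0.27 (adjusted p = 0.0768, 95% interval 0.028 to 0.51). The value in Usp22-KOB was 0.16 without WT 3 (adjusted p = 0.219), 0.13 with pan-leukocyte markers and 0.15 with T and NK cell markers as a covariate (adjusted p = 0.694 and 0.680).

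Atxn7l2 (chromosome 3, 108202222 to 108210934, minus strand), the other paralog, had 7.61, 7.57 and 6.69 TPM in the Usp22-KOA samples, 8.08, 9.63 and 8.38 TPM in Usp22-KOB and 16.8, 13.7 and 12.8 TPM in WT. Every knockout sample was below every WT sample, and the means were 50.6% of WT in Usp22-KOA and 60.3% of WT in Usp22-KOB. All Usp22-KOA samples were also below Usp22-KOB, with a difference of -0.22 ± 0.12 that was not called (adjusted p = 0.133). Atxn7l2 fell by 0.89 ± 0.12 in Usp22-KOA (adjusted p = 0.000170) and by 0.66 ± 0.12 in Usp22-KOB (adjusted p = 0.00231), next to Usp22 the largest differences from WT among the 8 tested members on this scale. In Usp22-KOB that order depends on the pseudocount: with one of 0.1 the difference was -0.72 for Atxn7l2 and -0.79 for Usp27x, whose mean was 55.9% of WT. It kept these calls under every alternative tried.

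Summed over Atxn7, Atxn7l1 and Atxn7l2, the anchor RNA was 30.2 ± 0.635 TPM in Usp22-KOA, 29.0 ± 1.53 TPM in Usp22-KOB and 30.99 ± 3.44 TPM in WT (SD, n = 3 each), and the ranges overlapped. Its make-up differed. Atxn7l2 made up 24.1% ± 1.27 in Usp22-KOA, 29.96% ± 2.28 in Usp22-KOB and 46.4% ± 2.75 in WT, where it was the most abundant of the 3. Atxn7l1 made up 50.1% ± 2.70 in Usp22-KOA, 47.5% ± 1.40 in Usp22-KOB and 36.5% ± 2.89 in WT, and Atxn7 made up 25.8% ± 3.92 in Usp22-KOA, 22.5% ± 1.25 in Usp22-KOB and 17.1% ± 1.62 in WT. For each of the 3 genes, the shares in the knockout samples did not overlap those in WT. Of their aligned coding sequence, 73.3% to 75.6% was identical in 134 to 187 bases, and their transcripts shared 0 words of 31 bases with each other. Over all 9 members the summed RNA was 155.6 ± 3.55 TPM in Usp22-KOA, 160.3 ± 11.1 TPM in Usp22-KOB and 211.5 ± 8.20 TPM in WT. Without Usp22 it was 146.2 ± 3.50 TPM in Usp22-KOA, 146.7 ± 10.3 TPM in Usp22-KOB and 156.1 ± 8.92 TPM in WT.

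**Figure D4:**
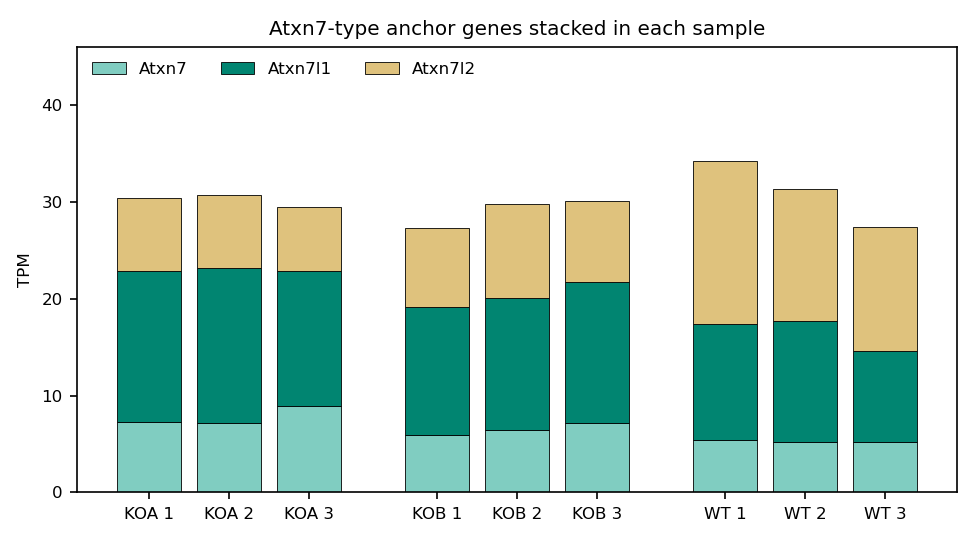
TPM of Atxn7, Atxn7l1 and Atxn7l2 stacked in each of the 3 samples of Usp22-KOA, Usp22-KOB and WT. The stacks are of similar height, between 27.3 and 34.2 TPM, but Atxn7l2 takes 24.1% on average in Usp22-KOA and 29.96% in Usp22-KOB, against 46.4% in WT.

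The promoters of Atxn7l2 and Atxn7l3 are shown because these members were called in opposite directions in both knockouts. Each is the 250 bases before the RefSeq start of the gene in GRCm38.p6, where 7 of the 9 members had an entry. The Atxn7l2 stretch lies inside the GENCODE M21 extent of that gene, which runs to 108210934. The RefSeq and GENCODE starts of Atxn7l2 therefore differ. Both strands were searched for motifs named after the ZNF143 (ACTACANNTCCCA), NRF1 (GCGCNTGCGC) and ETS (CCGGAAG) factors, the GC box (GGGCGG), the CCAAT box (CCAAT), the E-box (CACGTG) and the TATA box (TATAAA). Capitals mark the ZNF143 and NRF1 matches.
Atxn7l2 (chr3:108210528-108210777, minus strand): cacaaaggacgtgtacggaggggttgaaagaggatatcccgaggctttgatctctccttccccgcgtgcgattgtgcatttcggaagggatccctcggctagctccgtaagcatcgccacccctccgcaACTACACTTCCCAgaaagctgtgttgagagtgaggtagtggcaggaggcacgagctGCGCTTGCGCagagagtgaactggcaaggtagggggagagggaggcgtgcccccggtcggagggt
Atxn7l3 (chr11:102296630-102296879, minus strand): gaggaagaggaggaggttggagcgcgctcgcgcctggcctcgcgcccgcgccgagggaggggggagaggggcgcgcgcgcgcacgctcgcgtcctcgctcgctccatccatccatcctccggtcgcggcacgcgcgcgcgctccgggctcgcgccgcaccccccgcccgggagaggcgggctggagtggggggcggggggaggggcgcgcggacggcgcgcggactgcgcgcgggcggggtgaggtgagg
The Atxn7l2 promoter held 1 match to the ZNF143 motif, found in 1.35% of 32851 mouse promoters, and 1 to the NRF1 motif, found in 3.74%. The Atxn7l3 promoter held 3 GC boxes, a motif found in 32.7% of promoters, and none of the other motifs searched. Its GC content was 81.2%, with 46 CpG sites, against 60.0% and 17 CpG sites in Atxn7l2 and a median GC content of 52.4% over all promoters. The NRF1 motif also occurred in the promoter of Atxn7l3b. The remaining motifs occur in 6.91% (ETS), 33.9% (CCAAT), 6.02% (E-box) and 12.4% (TATA) of promoters. These matches are descriptions of the letters, and binding was not measured.

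The 5 lists that follow hold other SAGA subunits, writers of H2B ubiquitin, other histone deubiquitinases and TREX-2 partners of Eny2. Their genes are called partner genes for short, although some act outside SAGA. Of their 34 tested genes, 8 rose and 6 fell in Usp22-KOA, beside the 56.3% called among all tested genes. In Usp22-KOB 2 rose and 5 fell, beside 37.1%. The count was 9 in Usp22-KOA without Usp22-KOA 1, beside 50.6% of all tested genes. It was 4 in Usp22-KOB without Usp22-KOB 1, Usp22-KOB 2 or WT 1, beside 29.3%, 26.9% and 27.4%. With T and NK cell markers as a covariate it came to 4 in Usp22-KOA, beside 32.0%, and to 2 in Usp22-KOB, beside 10.6%.

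In the acetyltransferase module, which adds acetyl groups to histone H3, 2 of 5 members rose in Usp22-KOA and 0 fell, and 0 were called in Usp22-KOB. Kat2b, an acetyltransferase, had 38.5 ± 4.32 TPM in Usp22-KOA, 22.7 ± 1.53 TPM in Usp22-KOB and 18.8 ± 1.63 TPM in WT. It rose by 0.99 ± 0.10 in Usp22-KOA (adjusted p = 3.0e-05), while the difference in Usp22-KOB was 0.26 (adjusted p = 0.0625), and Usp22-KOA exceeded Usp22-KOB by 0.73 (adjusted p = 0.000292). In Usp22-KOB Kat2b was called with median-of-ratios scaling, with quantile normalization or without Usp22-KOA 3 (adjusted p = 0.0186, 0.0256 and 0.0363). Tada3, an adaptor of the acetyltransferase, rose by 0.22 ± 0.06 in Usp22-KOA (adjusted p = 0.0147). Among 12 tested core, Trrap and splicing subunits, 2 rose and 1 fell in Usp22-KOA, beside the same 56.3%. In Usp22-KOB 1 rose and 2 fell, beside 37.1%. Taf10, a core subunit shared with TFIID, had 151.8 ± 5.33 TPM in Usp22-KOA, 148.2 ± 13.9 TPM in Usp22-KOB and 191.8 ± 3.20 TPM in WT, and fell by 0.34 ± 0.07 in Usp22-KOA and by 0.37 ± 0.07 in Usp22-KOB (adjusted p = 0.00246 and 0.00290). Taf12, another shared subunit, rose by 0.54 ± 0.08 in Usp22-KOA (adjusted p = 0.000357), against a difference of 0.15 in Usp22-KOB (adjusted p = 0.166), which was 0.094 without Usp22-KOB 2. Supt20, a core subunit, fell with the mean of both knockouts against WT (-0.24, adjusted p = 0.0468). The call of Tada3 ended without Usp22-KOA 2 or WT 2 (adjusted p = 0.0503 and 0.0588), and that of Supt20 without any 1 of 6 samples (Usp22-KOA 1 and 2, Usp22-KOB 1 and 2, WT 1 and 2; adjusted p = 0.0807 to 0.161).

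Of 5 tested writers of the mark that the module removes, 1 rose and 1 fell in each knockout. Of all tested genes, 56.3% were called in Usp22-KOA and 37.1% in Usp22-KOB. Rnf40, which with Rnf20 forms the ubiquitin ligase for H2B, had 24.9 ± 0.703 TPM in Usp22-KOA, 28.6 ± 0.614 TPM in Usp22-KOB and 38.1 ± 2.01 TPM in WT. It fell by 0.60 ± 0.06 in Usp22-KOA (adjusted p = 3.1e-05) and by 0.40 ± 0.06 in Usp22-KOB (adjusted p = 0.000943), and the knockouts differed by -0.19 (adjusted p = 0.0214). Ube2a, the ubiquitin-conjugating enzyme that works with this ligase, rose by 0.28 ± 0.07 in Usp22-KOA and by 0.25 ± 0.07 in Usp22-KOB (adjusted p = 0.00734 and 0.0226). The difference of Rnf40 between the knockouts was not called without Usp22-KOA 3 or Usp22-KOB 1 (adjusted p = 0.0696 and 0.0509), nor was Ube2a in Usp22-KOB without Usp22-KOB 2 or WT 2 (adjusted p = 0.0867 and 0.0811).

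Among 7 tested deubiquitinases of H2A and H2B outside the module, 1 rose and 4 fell in Usp22-KOA, beside 56.3% of all tested genes called. In Usp22-KOB 0 rose and 2 fell, beside 37.1%. Usp16, an H2A protease, had 48.8 ± 2.90 TPM in Usp22-KOA, 28.8 ± 3.81 TPM in Usp22-KOB and 27.8 ± 1.73 TPM in WT. It rose by 0.79 ± 0.10 in Usp22-KOA (adjusted p = 0.000112), the difference in Usp22-KOB was 0.046 (adjusted p = 0.742, 95% interval -0.17 to 0.26, and -0.053 to 0.12 with 1 sample left out), and Usp22-KOA exceeded Usp22-KOB by 0.75 (adjusted p = 0.000239). Usp21, another H2A protease, fell by 0.56 ± 0.08 in Usp22-KOA (adjusted p = 0.000314), with a difference of 0.11 in Usp22-KOB (adjusted p = 0.310) and one of -0.67 between the knockouts (adjusted p = 0.000155). The value of Usp21 in Usp22-KOB was 0.19 without Usp22-KOB 1 and 0.051 without Usp22-KOB 3 (adjusted p = 0.0591 and 0.623). Usp49, an H2B protease, fell by 0.37 ± 0.12 in Usp22-KOA (adjusted p = 0.0315) and by 0.71 ± 0.12 in Usp22-KOB (adjusted p = 0.00254). Mysm1, an H2A metalloprotease, fell by 0.33 ± 0.12 in Usp22-KOA and by 0.39 ± 0.12 in Usp22-KOB (adjusted p = 0.0454 and 0.0353). The call of Usp49 in Usp22-KOA ended without any 1 of 5 samples (all of Usp22-KOA, WT 1 and WT 2; adjusted p = 0.0567 to 0.106). Its call in Usp22-KOB ended with pan-leukocyte or T and NK cell markers as a covariate (-0.61 ± 0.21 and -0.62 ± 0.23; adjusted p = 0.101 and 0.126), where the difference changed little and the SE was larger. With the same covariates Mysm1 in Usp22-KOB was at -0.14 and -0.10 (adjusted p = 0.676 and 0.787). The calls of Mysm1 ended without any 1 of 7 samples in Usp22-KOA (all of Usp22-KOA and WT, and Usp22-KOB 2; adjusted p = 0.0543 to 0.143) and without any 1 of 6 in Usp22-KOB (Usp22-KOA 2, Usp22-KOB 1 and 2, and all of WT; adjusted p = 0.0518 to 0.114).

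Of 5 TREX-2 partners of Eny2, 2 rose and 0 fell in Usp22-KOA, beside 56.3% of all tested genes called. In Usp22-KOB 0 were called, beside 37.1%. The scaffold Mcm3ap rose by 0.40 ± 0.09 in Usp22-KOA (adjusted p = 0.00510) and differed by 0.084 in Usp22-KOB (adjusted p = 0.505), a value that lay between -0.0056 and 0.16 with 1 sample left out. With T and NK cell markers as a covariate Kat2b, Taf10, Rnf40 and Usp16 kept their calls in Usp22-KOA, and Tada3, Taf12, Ube2a, Usp21, Usp49, Mysm1 and Mcm3ap lost theirs. Among those that lost a call, Tada3 (0.27 ± 0.15), Ube2a (0.33 ± 0.17) and Mcm3ap (0.51 ± 0.21) had larger differences than without the covariate, and larger SEs. Taf12 (0.26 ± 0.16), Usp21 (-0.37 ± 0.18) and Usp49 (-0.24 ± 0.30) had smaller differences, and Mysm1 changed sign (0.078 ± 0.25). Ube2a also lost its call in Usp22-KOB (0.28 ± 0.13, adjusted p = 0.202), where Taf10 kept its own (-0.57 ± 0.10, adjusted p = 0.00913). The medians of these 5 lists with both knockouts against WT lay between -0.18 and 0.14, beside 0.0087 over all tested genes.

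**Figure D5:**
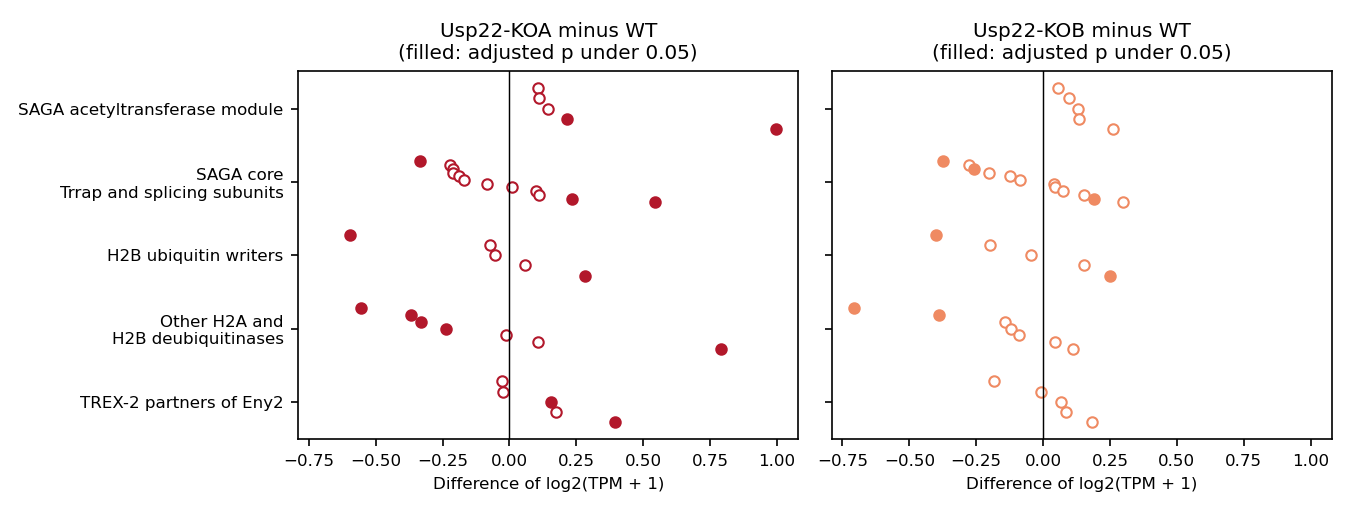
Difference of log2(TPM + 1) of each tested gene of 5 lists, Usp22-KOA minus WT on the left and Usp22-KOB minus WT on the right; filled points passed an adjusted p of 0.05. Kat2b at 0.99 and Usp16 at 0.79 are the 2 highest points in Usp22-KOA, and lie at 0.26 and 0.046 in Usp22-KOB.

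The genes whose level was most like that of Usp22 over the 9 samples, by Pearson r of log2(TPM + 1), were Adam28 (r = 0.999), Vtcn1 (r = 0.998), Slc44a4 (r = 0.997), Ush1g (r = 0.997) and Tmprss4 (r = 0.996). These r describe levels that fall into the 3 groups, and have no test. Slc44a4, a choline transporter family member, had 3.88 ± 0.281 TPM in Usp22-KOA, 6.83 ± 0.868 TPM in Usp22-KOB and 41.7 ± 1.64 TPM in WT. Tmprss4, a membrane serine protease, had 1.92 ± 0.845 TPM in Usp22-KOA, 4.56 ± 0.922 TPM in Usp22-KOB and 44.0 ± 2.13 TPM in WT. Vtcn1, an inhibitory ligand of T cells, had 0.700 ± 0.215 TPM in Usp22-KOA, 1.37 ± 0.405 TPM in Usp22-KOB and 15.7 ± 0.291 TPM in WT. Adam28, a metalloprotease, had 0.788 TPM in Usp22-KOA, 1.47 TPM in Usp22-KOB and 10.2 TPM in WT. Ush1g, a scaffold protein of sensory hair cells, had 0.0768 TPM in Usp22-KOA, 0.473 TPM in Usp22-KOB and 6.21 TPM in WT. All 5 share the order of Usp22, with Usp22-KOA lowest and WT highest, which follows from choosing them by their r with Usp22. Most like Eny2 were Tial1 (r = 0.990), Bicc1 (r = 0.988) and Tcf20 (r = 0.987), which encode a pair of RNA-binding proteins and a nuclear coregulator. Bicc1 had 30.9 ± 2.71 TPM in Usp22-KOA, 56.5 ± 9.98 TPM in Usp22-KOB and 92.2 ± 4.24 TPM in WT, and Tial1 had 20.1 ± 0.697 TPM in Usp22-KOA, 24.3 ± 2.21 TPM in Usp22-KOB and 32.4 ± 2.81 TPM in WT. Tcf20 had 15.2 ± 0.641 TPM in Usp22-KOA, 18.1 ± 1.91 TPM in Usp22-KOB and 21.7 ± 1.14 TPM in WT.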

How the data were processed

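RNA of 9 samples, 3 in each group, was measured as TPM of 24493 genes in a table that the authors deposited. Salmon, DESeq2 and the build mm10 were named per the submitters' processing notes; the sources used here give no roles, versions or strandedness. TPM keeps no read depth, so depth is unknown and precision rests on the spread between samples; between 13037 and 13940 genes reached 1 TPM per library.

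From the deposited TPM, log2(TPM + 1) was fitted for the 13843 genes that averaged 1 TPM or more (10650 were set aside), with all 9 samples in 1 limma fit with intensity trend and Benjamini-Hochberg adjustment at 0.05. Ratios and shares were computed within each sample and have no test. Positions and transcripts are GENCODE M21 (GRCm38, which is mm10), promoters RefSeq GRCm38.p6; words of 31 bases were compared between transcripts. The members, lists, ratios and markers were chosen with earlier results of these data known. Named were every member, in each list up to 4 called genes ranked by adjusted p in both knockouts minus WT, and the 5 and 3 genes most like Usp22 and Eny2, passing over predicted models; Nudcd1, Gm26596 and Gm22392 were named for overlap and the 6 epithelial genes as markers. Alternatives were pseudocounts, filters, scalings, limma without a trend, a replicate block, marker covariates, each sample left out, the 6 knockout samples as 1 group and fits of the groups compared alone. The software was limma 3.58.1 in R 4.3.3, and Biopython 1.88, pandas 2.3.3, matplotlib 3.10.9 and numpy 2.4.6 in Python 3.11.15.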

Additional observations from a re-analysis of the deposited data

Results flagged for a closer look

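Usp22 RNA differed between the knockouts, by -0.48 ± 0.10 on the log2(TPM + 1) scale for Usp22-KOA minus Usp22-KOB (limma, adjusted p = 0.00289), with 9.44 ± 0.867 TPM in Usp22-KOA, against 13.6 ± 1.62 TPM in Usp22-KOB (SD, n = 3 each). All 3 Usp22-KOA samples lay below every Usp22-KOB sample. The difference itself was tested, and that is why it is listed. Eny2 differed in the same direction, by -0.32 ± 0.08 (limma, adjusted p = 0.0125), with 23.8 ± 1.22 TPM in Usp22-KOA, against 29.9 ± 3.13 TPM in Usp22-KOB, again without overlap; the call ended with T and NK cell markers as a covariate (-0.26, adjusted p = 0.0505).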

How the results depend on the processing

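Usp22 and Atxn7l2 kept their direction and their calls against WT under every alternative. Of 668 values of members under alternatives, 606 kept direction and side of the threshold, 31 lost a call, 25 gained one and 6 changed sign. Of 546 values of the partner genes named above, 475 kept both, 63 lost a call, 3 gained one (Kat2b in Usp22-KOB) and 5 changed sign. These genes were named because they were called, so that choice left more calls to lose than to gain. T and NK cell markers as a covariate left 3 members called in Usp22-KOB and 4 with both knockouts against WT, and 4431, 1472 and 2681 genes of the whole table in Usp22-KOA, in Usp22-KOB and with both knockouts. These markers summed higher in every knockout sample than in any WT sample, so this covariate cannot be told apart from knockout against WT. Pan-leukocyte markers left 1832 genes in Usp22-KOB. With the 6 knockout samples as 1 group, 4 members and 2946 genes were called. Median-of-ratios scaling and quantile normalization each called 8 members in Usp22-KOB, where 41.3% and 42.2% of all genes were called, and quantile normalization called 4 between Usp22-KOA and Usp22-KOB, beside 53.0% of all genes. The 34 partner genes had 4, 2 and 4 calls with T and NK cell markers in Usp22-KOA, in Usp22-KOB and with both knockouts, beside 32.0%, 10.6% and 19.4% of all genes. They had 2 and 5 with pan-leukocyte markers in Usp22-KOB and with both knockouts, beside 13.2% and 36.1%. They had 4 with the 6 knockout samples as 1 group, beside 21.3%, and 11 in Usp22-KOB with quantile normalization, beside 42.2%. With samples left out they had 9 to 15 calls in Usp22-KOA, beside 50.4% to 59.4% of all genes, and 4 to 9 in Usp22-KOB, beside 26.9% to 40.6%. With samples left out, 3 to 6 members were called in Usp22-KOB, with 3 called without WT 1 or without WT 3, beside 27.4% and 29.4% of all genes. With both knockouts, Atxn7l1 lost its call without WT 3 (adjusted p = 0.0573), and Usp27x lost it without any 1 of Usp22-KOA 2, Usp22-KOB 1 and the 3 WT samples (adjusted p = 0.0505 to 0.135). Among members signs changed for uncalled values: Atxn7l3b with T and NK cell markers (0.056 in Usp22-KOA, 0.027 with both knockouts, 0.057 between Usp22-KOA and Usp22-KOB), Atxn7l3b between Usp22-KOA and Usp22-KOB with samples left out (-0.053 to 0.055), and Usp27x in Usp22-KOA with quantile normalization (0.035). Among partner genes signs changed for Taf12 in Usp22-KOB (-0.045 with T and NK cell and -0.062 with pan-leukocyte markers), for Mysm1 in Usp22-KOA with T and NK cell markers (0.078), and in Usp22-KOB with a sample left out for Usp16 (-0.053 to 0.12) and Mcm3ap (-0.0056 to 0.16). The causes were not tested. Deviations of same-numbered samples from their group means correlated at -0.125 to 0.276, not above 0.1 in every pair, and the labels name nothing that a number marks, so samples were not treated as paired. Whether same-numbered samples share a source was not tested; the pan-leukocyte, T and NK cell and mast cell sums were lowest in sample 3 of each group. With the replicate block, 6702 genes were called with both knockouts, against 6920 without it, and Usp27x lost its calls (adjusted p = 0.0647 in Usp22-KOB and 0.0664 with both knockouts), as did Ube2a in Usp22-KOB (0.0521), Usp49 in Usp22-KOA (0.0582), Mysm1 in Usp22-KOA and Usp22-KOB (0.0617 and 0.0510) and Supt20 with both knockouts (0.0738). No other call printed here changed with the block; not every sample correlated best with its own number. Read depth is unknown, so no counting error can be given for low members such as Usp27x.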
